A study of Mus musculus with 10 samples.

Results

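The mouse chromosome 16 segment that is present in an extra copy in Dp1Tyb mice carries, beside the nucleosome-binding protein gene Hmgn1, several genes whose products have been linked to chromatin. The 6 genes described here, Brwd1, Chaf1b, Morc3, Setd4, Hlcs and N6amt1, were listed by symbol and found in the count table through their Ensembl IDs, out of 43629 genes in the table and 250 in the segment. All 6 passed the filter on low counts, as did 114 genes of the segment and 17237 genes in all. Chaf1b passed it only through its levels in the Dp1Tyb mice. The samples were whole hippocampi of 10 mice, with 1 library per mouse. The labels give the strain as C57BL/6J.129P2 and the age as 18 weeks, whereas by the study's methods the mice had been backcrossed to C57BL/6J and were slightly older. The 5 Dp1Tyb mice carried Dp(16Lipi-Zbtb21)1TybEmcf, a duplication from Lipi to Zbtb21 that gives 3 copies of the segment, and the 5 wild-type (WT) mice were littermates with 2 copies. By the study's methods all 10 mice were male. The duplication is in every cell of the animal and holds all its genes at once, so the effect of any single gene cannot be told apart from that of the others.

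As background, the 6 genes are grouped here as chromatin regulators, but their products differ in what they do, and HLCS and N6AMT1 also have substrates outside chromatin. CHAF1B is a subunit of chromatin assembly factor 1 (CAF-1), which places histones H3 and H4 on newly replicated DNA and is best known from dividing cells. BRWD1 carries bromodomains, which bind acetylated histones, together with WD repeats. MORC3 is an ATPase whose zinc finger binds methylated histone H3 and which gathers in PML nuclear bodies. SETD4 has a SET domain, the catalytic domain of most lysine methyltransferases. HLCS, holocarboxylase synthetase, attaches biotin to the metabolic carboxylases and has also been found in the nucleus. N6AMT1 works with TRMT112 and methylates a glutamine of the translation release factor ETF1, and has also been described as a histone methyltransferase. The adult hippocampus is made up mostly of cells that no longer divide.

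The genes lie in the middle and distal parts of the segment, which is 22.4 Mb long. All positions are on chromosome 16 of GRCm38. N6amt1 (ENSMUSG00000044442, positions 87354185 to 87368742, plus strand) lies apart from the rest. Setd4 (ENSMUSG00000022948, 93583457 to 93604063, minus strand), Morc3 (ENSMUSG00000039456, 93832121 to 93876073, plus strand), Chaf1b (ENSMUSG00000022945, 93883901 to 93906115, plus strand) and Hlcs (ENSMUSG00000040820, 94128882 to 94313571, minus strand) form a cluster. Brwd1 (ENSMUSG00000022914, 95992092 to 96082526, minus strand) lies next to Hmgn1. All are protein coding. N6amt1 overlaps no annotated gene. The others overlap between 1 and 5 non-coding genes or pseudogenes, which share at most 1.12% of a member's exon bases (AC160993.1, antisense to Setd4). The strand setting of the counting was not given in the sources used here.

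Morc3 and Chaf1b stand head to tail on the same strand, 7827 bases apart, and are the closest pair among the 6. Their promoters and that of N6amt1 are shown to let these sequences be compared. N6amt1 was taken because its profile over the mice was the closest to that of Morc3 within the group. That closeness includes the copy number difference, which all 6 genes share. Each run covers 250 bases before and the first 30 bases after the start site in the RefSeq annotation of GRCm38.p6, on the plus strand, at chr16:93831871-93832150 for Morc3, chr16:93883651-93883930 for Chaf1b and chr16:87353935-87354214 for N6amt1. Capitals mark matches on either strand to the GC box (GGGCGG), the CCAAT box (CCAAT) and the core of the NRF1 motif (GCATGCGC).
Morc3: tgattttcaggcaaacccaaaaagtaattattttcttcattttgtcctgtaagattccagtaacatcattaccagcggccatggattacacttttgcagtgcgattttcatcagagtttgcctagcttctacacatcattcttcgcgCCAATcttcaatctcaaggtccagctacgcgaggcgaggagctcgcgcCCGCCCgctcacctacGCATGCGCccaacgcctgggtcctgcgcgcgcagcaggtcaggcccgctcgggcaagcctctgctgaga
Chaf1b: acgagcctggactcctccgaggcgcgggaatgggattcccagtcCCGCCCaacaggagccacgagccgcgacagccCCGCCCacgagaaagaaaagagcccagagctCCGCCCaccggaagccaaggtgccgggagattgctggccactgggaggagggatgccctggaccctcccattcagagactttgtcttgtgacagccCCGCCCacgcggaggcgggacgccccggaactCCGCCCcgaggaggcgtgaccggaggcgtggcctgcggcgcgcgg
N6amt1: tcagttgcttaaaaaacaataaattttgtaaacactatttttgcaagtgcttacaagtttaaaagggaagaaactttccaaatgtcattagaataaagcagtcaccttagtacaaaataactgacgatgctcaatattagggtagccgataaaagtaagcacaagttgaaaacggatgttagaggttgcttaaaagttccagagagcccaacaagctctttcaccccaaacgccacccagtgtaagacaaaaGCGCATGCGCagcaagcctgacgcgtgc

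The Chaf1b window held 5 GC boxes, all on the reverse strand, and no CCAAT box or NRF1 core. A GC box of N6amt1 lay at positions 42 to 47 after the start, beyond the run shown. The NRF1 core stood in Morc3 at positions −39 to −32 from the start and in N6amt1 within the first 12 bases after it, where the matches on both strands overlap in 1 palindrome. It was found in none of the other members' promoters and in 2.73% of the 32544 promoters of equal length in the RefSeq table, which run to 50 bases after the start. GC boxes were found in 35.9% of those promoters and CCAAT boxes in 37.4%. The palindromic cAMP response element (TGACGTCA, in 1.80% of all) and the TATA box (TATAAA, in 13.6%) were in none of the members' windows. The Brwd1 window had the most CpG dinucleotides of the 6 genes, 52, more than 99.4% of promoters, and the N6amt1 window the fewest, 11, against a median of 7 over all promoters. A match of letters is not a measured binding site.

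The comparison of Dp1Tyb with WT asked whether each of these genes was expressed at a higher level with the extra copy. Brwd1, Morc3, Hlcs and N6amt1 rose, with fold changes between 1.39 and 1.52, whereas Setd4 and Chaf1b did not pass the test although their point estimates were the lowest, 1.21, and the highest, 2.05. Genes were called at an adjusted p under 0.05 over all tested genes (edgeR). Of all tested genes 0.870% were called higher in Dp1Tyb, and of the 114 tested genes of the segment 59.6%, so 4 of 6 is near the share for the segment. In all 6 genes every Dp1Tyb sample lay above every WT sample, which was so for 62.3% of the tested genes of the segment and for 2.56% of all tested genes. The median fold change of the 6 was 1.48, against 1.45 for the segment (quartiles 1.27 and 1.55) and a median log2 fold change of −0.0041 for all tested genes. Chaf1b, which passed the filter only through the Dp1Tyb mice, is part of these counts and of the median of the 6. In bulk tissue, fewer cells of a type and less RNA per cell cannot be told apart.

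**Figure D1:**
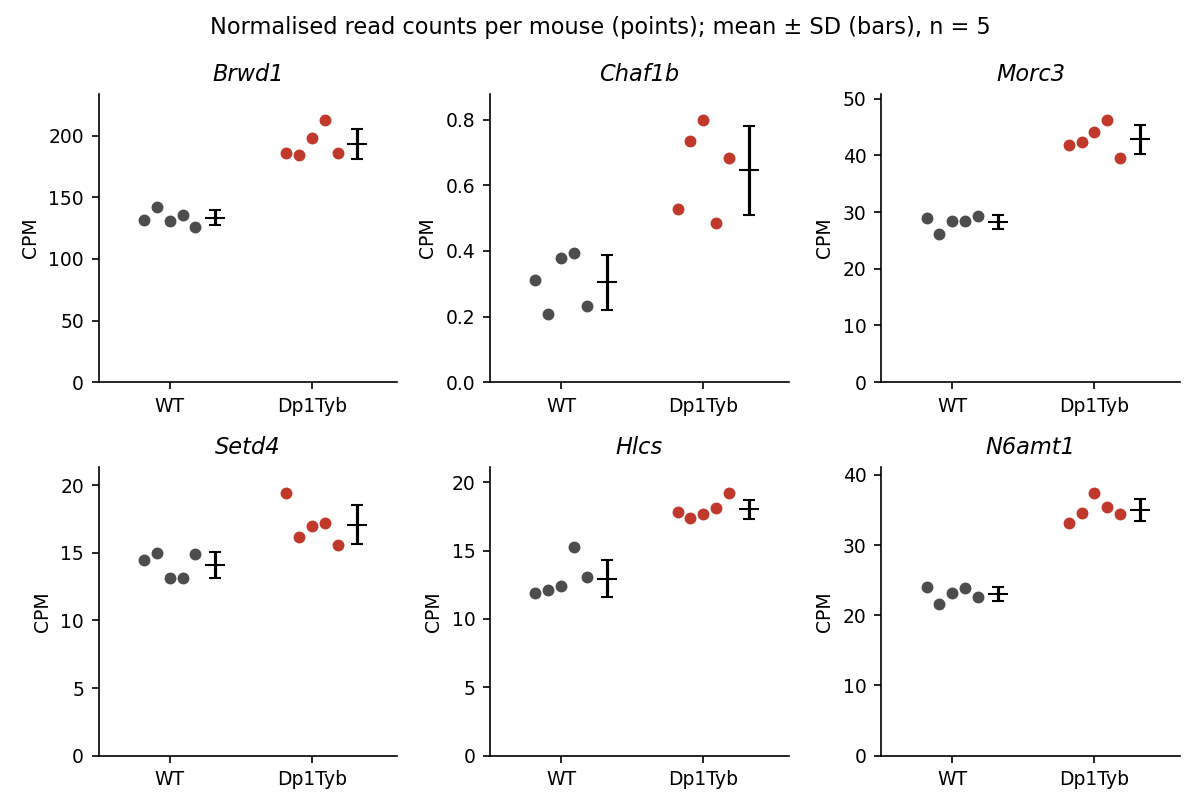
Normalised read counts (CPM, y axis from 0, a separate scale for each gene) of the 6 genes in each WT (grey) and Dp1Tyb (red) mouse, with the mean ± SD (n = 5) beside each group. No Dp1Tyb point overlaps a WT point, and the distance between the groups is smallest for Setd4, in which the lowest Dp1Tyb value is 1.04 times the highest WT value.

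Brwd1 was the most abundant of the 6 by read count. Its level in WT replicates 1 to 5 was 132, 142, 131, 136 and 126 CPM (read counts relative to the library total, scaled by TMM factors), and in Dp1Tyb replicates 1 to 5 it was 186, 184, 198, 213 and 186 CPM. The groups were well separated, with the highest value in Dp1Tyb replicate 4. The means were 133 ± 5.98 and 193 ± 12.3 CPM (SD, n = 5). The log2 difference between them was 0.54 ± 0.047 SE, with an adjusted p of 2.23e-05 in edgeR. The 95% interval of the fold change, 1.35 to 1.56, included the ratio of 1.5 given by 3 copies over 2.

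Morc3 was at 29.0, 26.1, 28.5, 28.5 and 29.3 CPM in the WT mice and at 41.8, 42.4, 44.2, 46.3 and 39.5 CPM in the Dp1Tyb mice, in replicate order. WT replicate 2 was the lowest of all, and even the lowest Dp1Tyb mouse was 1.35 times above the highest WT mouse. The log2 difference was 0.60 ± 0.052 SE (edgeR, adjusted p = 2.12e-05), a fold change of 1.51 with an interval of 1.40 to 1.64.

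N6amt1, the methyltransferase gene, was of middle abundance. The WT mice had 24.0, 21.6, 23.2, 23.9 and 22.6 CPM and the Dp1Tyb mice 33.1, 34.6, 37.4, 35.5 and 34.5 CPM. The SD was 4.33% of the mean in WT and 4.50% in Dp1Tyb, and the gap between the groups was the widest of the 6 genes, the lowest Dp1Tyb value being 1.38 times the highest WT value. The log2 fold change was 0.60 ± 0.050 SE (edgeR, adjusted p = 1.31e-05), or 1.52-fold with an interval of 1.41 to 1.64. By its p-value N6amt1 ranked 21 among all tested genes, Morc3 24 and Brwd1 26.

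Hlcs was lower in abundance, at 11.9, 12.1, 12.4, 15.3 and 13.1 CPM in WT and 17.8, 17.4, 17.7, 18.1 and 19.2 CPM in Dp1Tyb. The Dp1Tyb mice lay close together, and WT replicate 4 reached nearest to them. The log2 fold change was 0.48 ± 0.074 SE (edgeR, adjusted p = 0.00501), a fold change of 1.39 with an interval of 1.24 to 1.55.

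Setd4 had the smallest difference. It was measured at 14.5, 15.0, 13.1, 13.1 and 14.9 CPM in WT and at 19.4, 16.2, 17.0, 17.2 and 15.6 CPM in Dp1Tyb. Dp1Tyb replicate 1 stood above the other Dp1Tyb mice, and the lowest Dp1Tyb mouse was close to the highest WT mice. The log2 fold change was 0.28 ± 0.073 SE (edgeR, adjusted p = 0.0943), with the fold change at 1.21 and its interval from 1.09 to 1.35. With between 241 and 847 counts per sample, a change of 1.5-fold would be outside this interval. Among the 114 tested genes of the segment, 19 had an interval wholly below 1.5, 83 had one that included it and 12 had one wholly above it. The result was near the threshold: DESeq2 gave an adjusted p of 0.0268, whereas in the other 14 alternative fits the adjusted p lay between 0.0729 and 0.223. Without Dp1Tyb replicate 1 the log2 fold change was 0.23. Over the edgeR alternatives the upper limit of the interval lay between 1.30 and 1.39.

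Chaf1b was at the edge of detection. The WT libraries held 10, 5, 7, 13 and 5 reads of it and the Dp1Tyb libraries 23, 21, 20, 16 and 15, which are 40 and 95 reads in total. As levels these were 0.311, 0.208, 0.380, 0.394 and 0.233 CPM in WT and 0.527, 0.735, 0.800, 0.485 and 0.684 CPM in Dp1Tyb. The groups did not overlap, but the SD was 27.4% of the mean in WT and 20.9% in Dp1Tyb. Most WT mice lay below the level that the filter on low counts asks for. The gene was tested only because of its levels in the Dp1Tyb mice, so its separation and fold change do not stand apart from the filter. The log2 fold change was 1.03 ± 0.26 SE (edgeR, adjusted p = 0.0806). Its interval, 1.39 to 3.02, was the widest of the 6 and included 1.5, so at this depth a change of 1.5-fold and one of 2.05-fold were not distinguishable. Across the alternatives that gave one the adjusted p lay between 0.082 and 0.193, and DESeq2 gave none for this gene. Without the filter the log2 fold change was 1.04 (edgeR, adjusted p = 0.144).

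**Figure D2:**
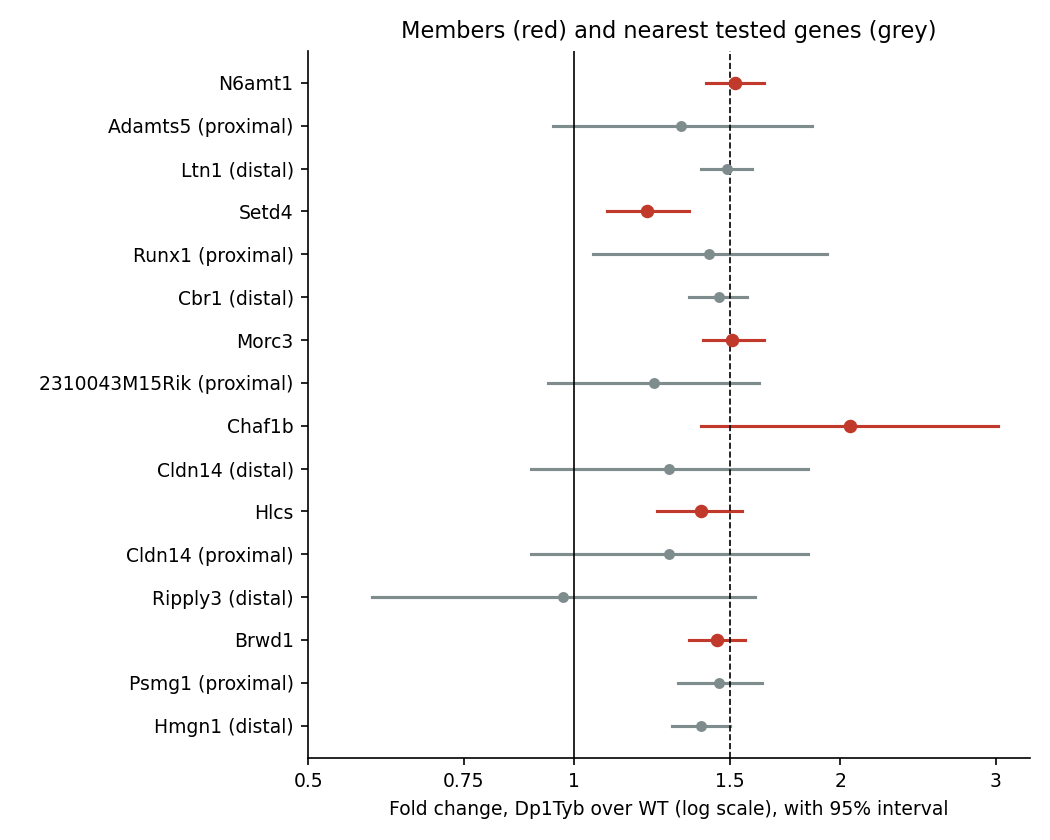
Fold change of Dp1Tyb over WT (x axis, log scale) with its 95% interval for the 6 genes (red) and for the nearest tested gene on each side (grey), ordered along the chromosome, where neighbours that are themselves among the 6 are drawn once and Cldn14 stands beside both Chaf1b and Hlcs. The solid line marks no change and the dashed line 1.5. The interval of Setd4, 1.09 to 1.35, ends below the dashed line, and that of Chaf1b is the widest of the 6.

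To compare each gene with the rest of the segment, its log2 level in each mouse was taken relative to the median of the other tested duplicated genes, and the genotypes were compared with an exact two-sided permutation test over the 252 relabellings of the mice, adjusted over all 114 genes. Setd4 was 0.791 times as high in Dp1Tyb as in WT on this relative scale (exact permutation p = 0.0317, adjusted p = 0.213) and Chaf1b 1.30 times (exact permutation p = 0.0794, adjusted p = 0.312). The 4 called genes lay between 0.950 (Hlcs) and 1.06 (Morc3 and N6amt1). After adjustment none of the 114 passed, with 20 below 0.05 before it. The smallest p the design allows is 0.00794, so that at least 19 of the 114 genes would have had to lie at or near it together for any to pass. The adjusted test could therefore hardly pass for a single gene, and it does not show that the 6 behaved like the rest of the segment.

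The position plot sets these values in the segment. By fold change the order among the 114 tested genes was Chaf1b at 3, N6amt1 at 37, Morc3 at 39, Brwd1 at 54, Hlcs at 70 and Setd4 at 92. The place of Chaf1b is that of a gene that passed the filter only through the Dp1Tyb mice. The nearest tested genes on each side were also looked at. Cbr1, a carbonyl reductase gene 1.79 kb distal to Setd4, rose 1.46-fold (interval 1.35 to 1.57, edgeR adjusted p = 2.72e-05), and the ratio of Setd4 to Cbr1 counts was 0.274 to 0.359 in WT and 0.233 to 0.299 in Dp1Tyb, ranges that overlap. Ltn1, a ubiquitin ligase gene of ribosome quality control 7.91 kb distal to N6amt1, rose 1.49-fold (1.39 to 1.59, adjusted p = 8.82e-06). On the sides of Brwd1, Psmg1, which codes for a proteasome assembly chaperone, rose 1.46-fold (adjusted p = 0.00115) and Hmgn1 1.39-fold (adjusted p = 0.000149).

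The remaining neighbours were of low level and none passed the test. Cldn14, which codes for a tight-junction protein and lies between Chaf1b and Hlcs, had 0.307 ± 0.0567 CPM in the WT mice and 0.391 ± 0.0495 CPM in the Dp1Tyb mice (SD, n = 5). Ripply3, distal to Hlcs, had 0.676 ± 0.165 and 0.678 ± 0.380 CPM. The fold changes of Adamts5, Runx1 and 2310043M15Rik were 1.32, 1.42 and 1.23 (edgeR adjusted p = 0.434, 0.285 and 0.486).

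**Figure D3:**
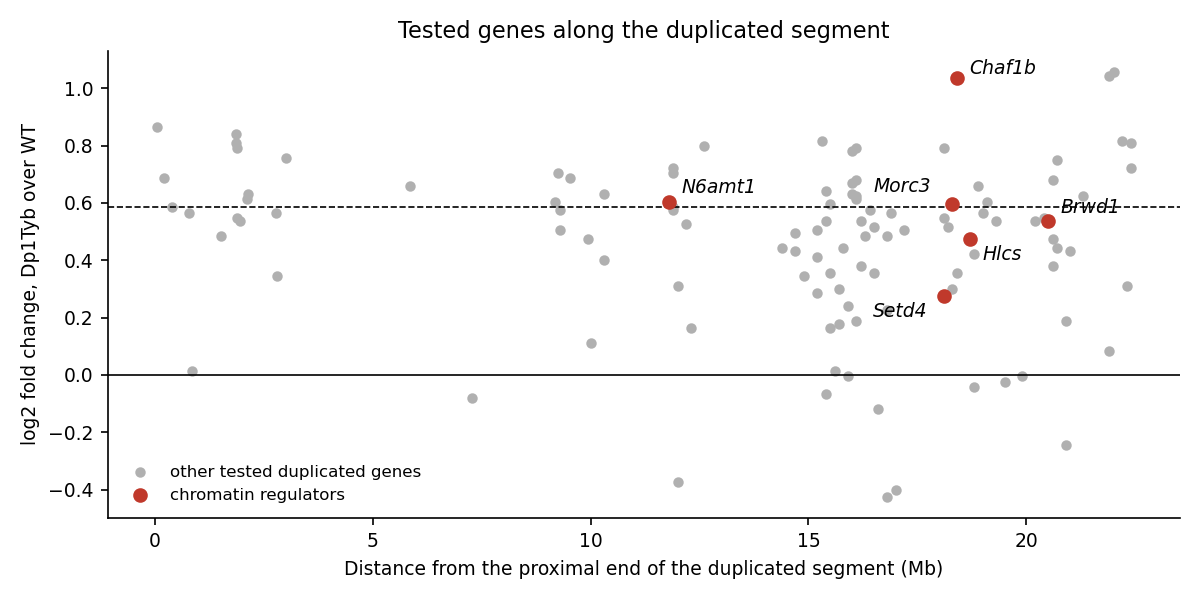
Log2 fold change of Dp1Tyb over WT (y axis) of the 114 tested genes of the duplicated segment against their distance from its proximal end in Mb (x axis), with the 6 genes grouped as chromatin regulators in red. The dashed line is a fold change of 1.5. N6amt1, Morc3, Brwd1 and Hlcs lie within the main band of grey points, Chaf1b near the upper edge and Setd4 in the lower part of the band.

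Per length, the 6 genes spanned a wide range of levels. With the union of annotated exons as length, Brwd1 had 6.57 ± 0.295 RPKM in WT (CPM divided by the exon length in kilobases; SD, n = 5), Morc3 5.21 ± 0.236, N6amt1 3.76 ± 0.163, Setd4 2.62 ± 0.175, Hlcs 1.45 ± 0.153 and Chaf1b 0.0652 ± 0.0179 RPKM. In Dp1Tyb the means were 9.53, 7.89, 5.71, 3.18, 2.02 and 0.138 RPKM. The order was the same in both genotypes, and adjacent genes in it differed by more than their SDs. With the longest annotated transcript as length, the WT levels were 13.5 for Brwd1, 6.77 for Morc3, 6.64 for N6amt1, 5.39 for Setd4, 2.41 for Hlcs and 0.108 for Chaf1b, so that Morc3 and N6amt1 were then nearly equal. The median over the tested genes of the segment was 3.56 RPKM in WT. By the mean over all 10 mice Chaf1b was the lowest but 3 of the 114, and in WT its level was 80.0 times below that of its neighbour Morc3. Together the 6 genes took 206 to 217 CPM in the WT mice and 295 to 331 CPM in the Dp1Tyb mice.

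Over the 10 mice, the genes most like each member by Pearson's r of log2 CPM were in large part other genes of the segment, which share the copy number difference. For Brwd1 they were Ltn1 and Tiam1 (r = 0.99 for both), for Morc3 Dyrk1a (0.984) and N6amt1 (0.983), for N6amt1 Dyrk1a (0.987) and App (0.984), and for Hlcs Dop1b (0.974) and Slc17a8 (0.965), the last of which lies on chromosome 10. Of the 20 genes most like Morc3 and of those most like N6amt1, 19 each were in the segment. The number was 16 for Brwd1, 9 for Hlcs and 9 for Chaf1b, whose closest genes were Cbr1 (0.946) and Fdft1 on chromosome 14 (0.937). For Setd4 it was 1, and the closest genes were A830036E02Rik on chromosome 11 (0.947) and Hps1 on chromosome 19 (0.939). With the mean of each genotype removed, the correlations among the 6 genes ranged from −0.736 for Chaf1b with Setd4 to 0.672 for Chaf1b with N6amt1, both of which involve the low counts of Chaf1b. That of Morc3 with N6amt1 was 0.616.

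The partners and relatives of the 6 proteins, listed by function, mostly did not pass the test. Of 127 tested genes in 7 lists, 1 was called higher (Smyd1) and 1 lower (Cecr2), against 1.11% of all tested genes called in either direction. The median absolute log2 fold change of the 127 was 0.058, against 0.086 over all tested genes, which were not matched to the 127 in read level. Before adjustment, 15.0% of the 127 had a p under 0.05, against 14.4% over the whole table.

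Neither of the genes for the subunits that complete CAF-1 was called. Chaf1a, which codes for its large subunit, averaged 4.89 ± 0.238 CPM in the WT mice and 5.08 ± 0.252 CPM in the Dp1Tyb mice (SD, n = 5; fold change 1.04, interval 0.918 to 1.18, edgeR adjusted p = 0.788). Rbbp4, which codes for the histone-binding subunit shared with other complexes, was at 95.7 ± 3.58 CPM in WT (fold change 1.05, interval 0.986 to 1.11, adjusted p = 0.475). On the RPKM scale the ratio of Chaf1b to Chaf1a was 0.0745 to 0.155 in the WT mice and 0.173 to 0.303 in the Dp1Tyb mice. These ranges do not overlap, but they rest on 5 to 23 reads of Chaf1b per library and carry the difference in Chaf1b itself. Of the 21 tested histone chaperone genes none was called, 1 had an unadjusted p under 0.05, and the median log2 fold change was 0.0099. The cell-cycle genes Mki67, Top2a, Cdk1, Ccnb1 and Ccna2, which mark dividing cells, summed to 8.55 to 12.4 CPM in WT and 8.83 to 13.8 CPM in Dp1Tyb, and none of the 5 was called.

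Brwd1 has a pair of close relatives, Brwd3 and Phip. Brwd3 was at 24.8 ± 3.65 CPM in WT and 21.3 ± 2.63 CPM in Dp1Tyb (edgeR adjusted p = 0.381), and Phip at 72.7 ± 4.95 and 70.9 ± 7.31 CPM (adjusted p = 0.849). Per length, Brwd1 was 2.91 to 3.21 times as high as Phip in the WT mice and 4.30 to 4.84 times in the Dp1Tyb mice. The size of this ratio, and of the like ratios of the other members, depends on the length used. Their differences between genotypes carry that of the member itself. Among 33 tested bromodomain genes, 9 had a positive and 24 a negative log2 fold change, with a median of −0.046. Cecr2, which codes for a subunit of a chromatin remodelling complex, fell to 0.765 of its WT level, from 13.5 ± 1.16 to 10.4 ± 0.963 CPM (edgeR adjusted p = 0.0434). When each mouse was left out in turn the adjusted p lay between 0.031 and 0.115, and Cecr2 passed in 2 of 10 such fits, those without WT replicate 3 and without Dp1Tyb replicate 5.

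Among the relatives of Morc3 and the components of PML bodies, none of 12 tested genes was called, 2 had an unadjusted p under 0.05, and the median log2 fold change was −0.055. Morc2a was at 66.3 ± 3.90 CPM in WT and 64.0 ± 1.52 CPM in Dp1Tyb (edgeR adjusted p = 0.611), and Pml, which codes for the organiser of these bodies, at 15.1 ± 1.40 and 14.1 ± 1.04 CPM (adjusted p = 0.579). Morc1, a germ-line gene, was too low to be tested. The ratio of Morc3 to Morc2a per length was 0.466 to 0.542 in WT and 0.742 to 0.866 in Dp1Tyb.

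The closest relatives of Setd4 are Setd3, an actin histidine methyltransferase, and Setd6. Setd3 had 141 ± 3.62 CPM in WT and 143 ± 5.49 CPM in Dp1Tyb (edgeR adjusted p = 0.861), and Setd6 12.4 ± 0.174 and 12.8 ± 0.784 CPM (adjusted p = 0.763). Per length, the ratio of Setd4 to Setd3 was 0.105 to 0.120 in WT and 0.121 to 0.157 in Dp1Tyb. That of Setd4 to Setd6 was 0.367 to 0.429 in WT and 0.426 to 0.513 in Dp1Tyb, ranges that overlap. Of 33 tested SET-domain genes, 13 had a positive and 20 a negative log2 fold change, with 6 below 0.05 in unadjusted p. The called gene, Smyd1, known as a muscle methyltransferase, was low in hippocampus and rose 1.79-fold, from 1.37 ± 0.220 CPM in the WT mice to 2.44 ± 0.292 CPM in the others (edgeR adjusted p = 0.0137). Its WT values, 1.04 to 1.59 CPM, did not overlap the Dp1Tyb values, 2.01 to 2.76 CPM. The call was lost without WT replicate 4, where the adjusted p was 0.0526.

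None of the genes for the enzymes that HLCS biotinylates was called. Acaca and Acacb (acetyl-CoA carboxylases), Pcx (pyruvate carboxylase), Pcca (propionyl-CoA carboxylase) and Mccc1 (methylcrotonyl-CoA carboxylase) had fold changes of 1.03, 0.714, 0.972, 0.944 and 0.846 (edgeR adjusted p = 0.745, 0.244, 0.697, 0.635 and 0.302). Btd, which codes for the biotin-recycling enzyme biotinidase, was at 10.3 ± 2.23 CPM in WT and 9.25 ± 1.94 CPM in Dp1Tyb (adjusted p = 0.671). Per length, the ratio of Hlcs to Btd was 0.265 to 0.423 in WT and 0.395 to 0.674 in Dp1Tyb, ranges that overlap. Of the 9 tested genes of this list 8 had a negative log2 fold change, the median was −0.083, 3 had an unadjusted p under 0.05 and none was called.

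The partner of N6AMT1, Trmt112, was at 7.31 ± 0.912 CPM in WT and 6.30 ± 1.52 CPM in Dp1Tyb (fold change 0.856, interval 0.677 to 1.08, edgeR adjusted p = 0.535). Per length, N6amt1 was 0.540 to 0.750 times as high as Trmt112 in the WT mice and 0.895 to 1.54 times in the Dp1Tyb mice. The substrate gene Etf1 was at 86.9 ± 1.30 and 93.8 ± 4.0 CPM (1.08-fold, interval 1.02 to 1.14, adjusted p = 0.190). None of the 10 tested genes of this list was called. Nor was any of the 11 histone variant genes, of which 9 had a negative log2 fold change, 3 had an unadjusted p under 0.05 and the median was −0.081.

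**Figure D4:**
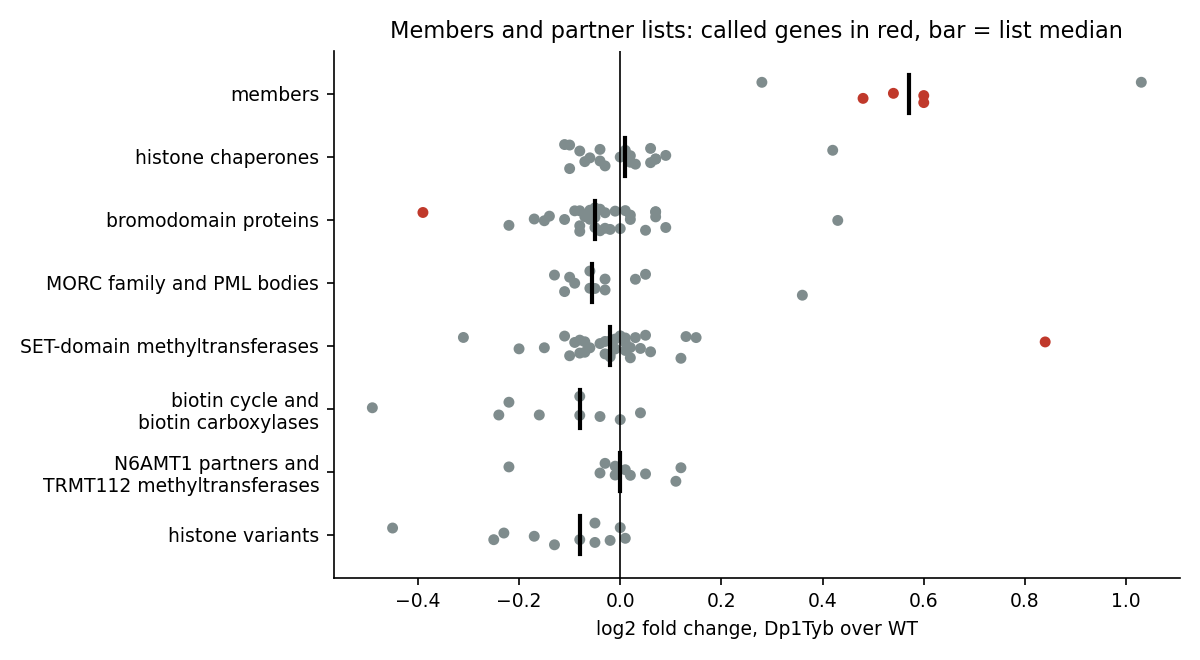
Log2 fold change of Dp1Tyb over WT (x axis) of the 6 members and of the tested genes of 7 partner lists (rows, points spread vertically for clarity), with called genes in red and the median of each list as a bar. The 6 members lie between 0.28 and 1.03, with Brwd1, Morc3, Hlcs and N6amt1 called. The medians of the partner lists lie between −0.083 and 0.0099, with Cecr2 at −0.39 and Smyd1 at 0.84 as the only called genes of these lists.

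Total counts per library ranged from 18227684 to 43692270. The tissue label was checked with markers: the neuronal genes Rbfox3, Snap25 and Syt1 and the hippocampal genes Prox1, Wfs1, Neurod6 and Zbtb20 were present in every library and none was called, nor was any of 3 oligodendrocyte and 3 microglial markers. The choroid plexus markers Ttr, Folr1, Kcnj13, Clic6 and Kl, from tissue that adjoins the hippocampus, summed to between 417 and 5290 CPM in WT and between 34.2 and 3820 CPM in Dp1Tyb, and 0 of 5 were called. All 5 had lower means in Dp1Tyb, with fold changes between 0.504 (Ttr) and 0.757 (Clic6) and an interval of 0.0963 to 2.64 for Ttr, and Clic6 is itself a gene of the duplicated segment. Of the 3 astrocyte markers, which summed to 512 to 543 CPM in WT and 589 to 662 CPM in Dp1Tyb, Gfap was called (fold change 1.20, edgeR adjusted p = 0.0167, lost without Dp1Tyb replicate 2 at 0.0587), Aqp4 was at 1.17-fold (adjusted p = 0.0721) and Aldh1l1 at 0.993-fold (adjusted p = 0.947). The part of these differences in the results of the 6 genes was not tested.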

How the data were processed

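Whole hippocampi of 5 WT and 5 Dp1Tyb mice were measured by stranded poly(A) RNA sequencing. Per the labels and the study's methods, the authors trimmed adapters with Trim Galore, mapped reads to GRCm38 with TopHat2 2.0.12, kept only uniquely aligning reads and summed them over Ensembl genes with HTSeq. The deposited counts are raw whole numbers and were used as they stand. The normalised table and the authors' table of their own comparison (means, fold changes and p-values) were not used.

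Symbols, positions and exon lengths came from GENCODE M21, matched by Ensembl ID for 42548 genes. The 1081 others were tested without a symbol. Genotypes were compared across all genes with edgeR 4.0.16 in R 4.3.3 (quasi-likelihood F-test, TMM, filterByExpr, no covariates, Benjamini-Hochberg adjustment). SEs and 95% intervals are those that give the test statistic. The most alike genes were found on log2 CPM with a prior count of 2. Alternatives were DESeq2 1.42.0, limma-voom 3.58.1, DESeq2 size factors, no filter, a replicate block and leaving out each mouse. The fit was checked on simulated counts. Genes were named as members, listed partners (those called, then direct partners), nearest tested neighbours and most alike genes. The members and lists were chosen with earlier results of these data known, and the comparison with the segment median, the Setd4 to Cbr1 ratio and the leave-one-out values of single genes were added after seeing the data.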

Additional observations from a re-analysis of the deposited data

Results flagged for a closer look

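Among the 12 groups of 5 mice (6 genes in 2 genotypes), 1 held a mouse far from the others, where chance gives 0.6. Morc3 in WT replicate 2 was at 26.1 CPM against 28.5 to 29.3 CPM in the other WT mice, so that the gap to the nearest mouse took up 0.749 of the spread of the WT values.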

How the results depend on the processing

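Brwd1, Morc3, Hlcs and N6amt1 were called, and all 6 genes were higher in Dp1Tyb, in each of the 15 alternatives (14 for Chaf1b, to which DESeq2 gave no adjusted p). Setd4 was called by DESeq2 only. Whether the replicate numbers shared by the genotypes mark pairs is not known. Across genes, same-numbered mice had correlations of −0.0686 to 0.277 in their deviations from the genotype means. Only WT replicate 1 was closest to its own number. Correlations of this size cannot decide the question. With the replicate block, 315 genes were called over the whole table and 1 partner gene (Smyd1, with Cecr2 at an adjusted p of 0.0599), against 191 and 2. DESeq2 called 506 genes over the whole table and 3 partner genes (Brpf3, Cecr2 and Smyd1). When single mice were left out, the number of called genes ranged from 105 (WT replicate 4 left out, and likewise Dp1Tyb replicate 2) to 218 (Dp1Tyb replicate 5). It was 111 with Dp1Tyb replicate 3 left out and 127 with WT replicate 5 left out. In the fits that left out a mouse, called partner genes numbered from 0 (WT replicate 4 left out) to 2. The causes were not tested. The depth of 5 to 23 reads limits Chaf1b, and intervals cover only the spread between these mice.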

Other observations

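With the mean of each genotype removed, only the variation from mouse to mouse within a genotype remained, and the genes most like the 6 were found again by Pearson's r over the 10 samples. None of the 20 most alike genes of Brwd1, Morc3, Setd4, Hlcs and N6amt1 lay in the segment, and 1 of those of Chaf1b did. The segment holds 114 of the 17237 tested genes, so hardly any would be expected among 20 genes taken from the whole table. The closest were Cep295 for Brwd1 (r = 0.964), Ano1 for Morc3 (0.952), Trmu for Setd4 (0.961), Clasp1 for Hlcs (0.932), Gpat2 for N6amt1 (0.933) and Apobec1 for Chaf1b (0.949). These were picked as the highest among all other tested genes, over 10 samples only, and are given as a description.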
